A study of Mus musculus with 11 samples.

Results

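The steroidogenic P450 enzymes of mouse Leydig tumor cells (MLTCs) and the proteins that pass electrons to them were examined after knockdown of *Mamld1*. They are the products of 8 genes out of 17016 that the array named, chosen by name and by every probe that carries the gene's transcript accession: *Cyp17a1*, *Cyp11a1*, *Cyp19a1*, *Por*, *Cyb5a*, *Cyb5b*, *Fdx1*, and *Fdxr*. These genes had 13 of the 41174 probes, and 12 of them were among the 24250 probes that exceeded background on all arrays of 1 group or more and were therefore tested. The other, the dimmer of the 2 *Cyp19a1* probes, was well above background on no array.

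RNA from MLTC-1 cells, a cultured line derived from a mouse Leydig cell tumor, was hybridized to 11 single-color arrays. The cells had been transfected with 20 nM of non-targeting control RNA (4611G) (4 arrays, called control), of siRNA1 (4 arrays), or of siRNA2 (3 arrays). Both siRNAs were directed against *Mamld1*, and RNA was taken about 48 hours later. All groups share the cell line and the transfection reagent. The methods add that hCG, a gonadotropin that stimulates Leydig cells, was given after 48 hours of incubation, 1 hour before harvest. The labels name no hCG. The line is a tumor line grown on its own, without the other cells of a testis, and RNA came from whole cultures, so that fewer cells of a type and less RNA per cell cannot be told apart.

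Cytochrome P450 enzymes bind oxygen with a heme iron and need electrons from NADPH, which reach them through partner proteins. Enzymes in the endoplasmic reticulum, such as CYP17A1 and aromatase, receive them from P450 oxidoreductase (POR), with cytochrome b5 as an aid, whereas CYP11A1 inside the mitochondrion receives them from ferredoxin reductase by way of ferredoxin, a small iron-sulfur protein. In the Leydig cell, CYP11A1 cuts the side chain of cholesterol to make pregnenolone, and CYP17A1 then turns pregnenolone and progesterone into the precursors of testosterone (T).

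The 75th percentile of the signal, to which each array was scaled, was 469.7 to 582 on control arrays, 601 to 774 with siRNA1, and 488 to 579 with siRNA2, and no gene below depends on a saturated spot. The arrays lay on 3 slides that each held all 3 groups. The *Mamld1* level was 101% ± 17.1 of control on control arrays (SD, n = 4), 54.0% ± 15.4 with siRNA1 (n = 4), and 59.8% ± 12.6 with siRNA2 (n = 3), and it was called with both siRNAs (adjusted p = 0.00571 and 0.0309). All 8 Leydig cell markers on the array were well above background on all 11 arrays. So were 3 of 7 Sertoli cell markers (*Amh*, *Rhox5*, and *Gata1*) and *Cdh5* of 3 endothelial markers, while *Sox9*, *Dmrt1*, and *Aard* (Sertoli cell), *Adgre1* and *Ptprc* (macrophage), and *Kdr* (endothelial) were so on none and the macrophage marker *Csf1r* was on 7 arrays. The labels do not say whether arrays of a group came from separate cultures, so the p-values measure the spread between these samples, and the number of arrays limits the precision.

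*Cyp17a1* fell with both siRNAs, as did the brightest of 3 probes of the ferredoxin gene *Fdx1*, whose other probes were not called with siRNA1. Their levels on each array were 82.2% to 118% of control for *Cyp17a1* and 98.1% to 101% for the brightest *Fdx1* probe on control arrays, and all siRNA arrays lay below them. *Cyb5b* rose with siRNA1 by both of its probes, and *Cyp19a1*, measured at low signal, rose with siRNA2 by the one probe tested. *Cyp11a1* and *Fdxr* differed between the siRNAs, and no probe of *Por* or *Cyb5a* passed the test in any comparison. Here and below, a level is given as a percentage of the mean log2 level on the 4 control arrays turned back to the linear scale. A probe was called where limma, fitted over all tested probes, gave an adjusted p (Benjamini-Hochberg) no higher than 0.05, with no minimum fold.

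**Figure D1:**
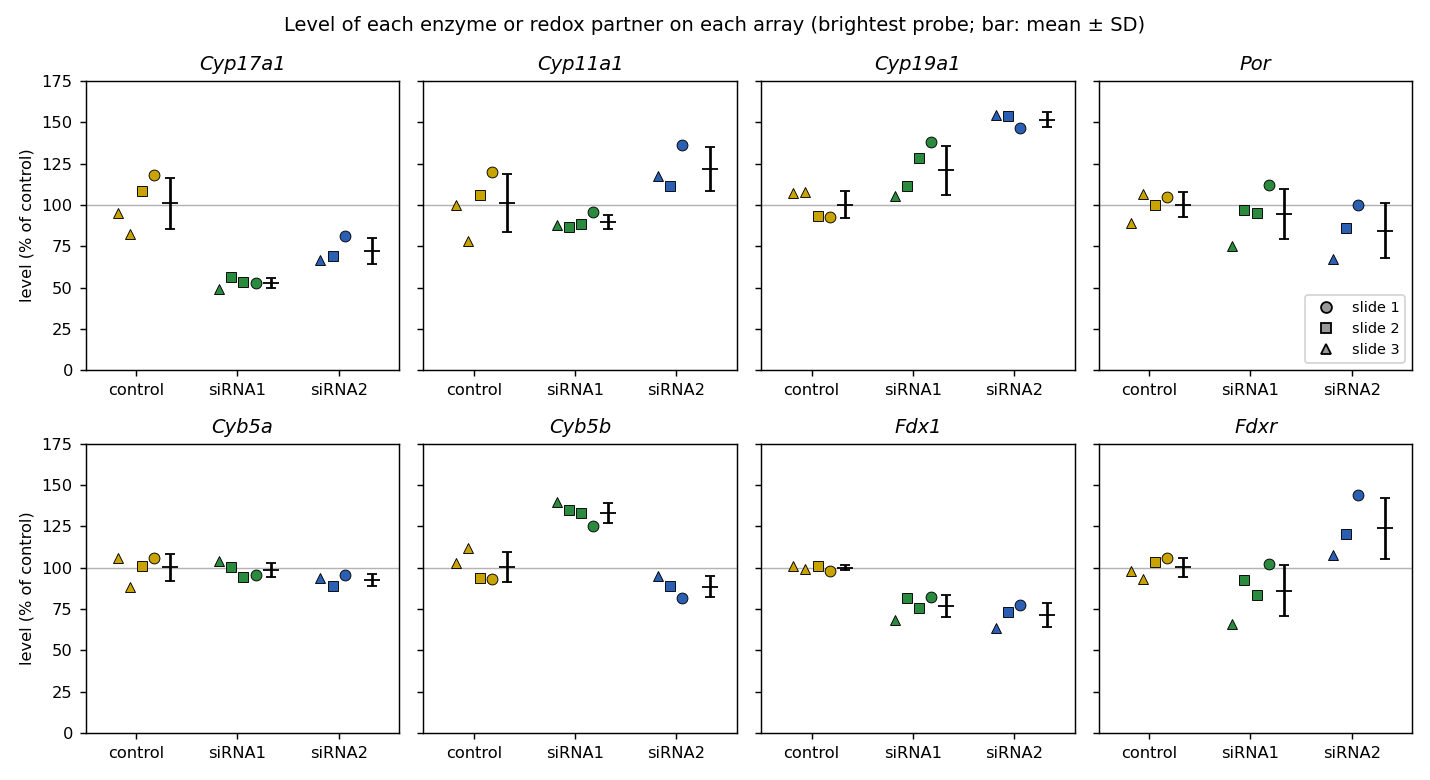
Level of the brightest probe of each gene on each of 11 arrays, as a percentage of the control level. Symbols mark the slide, and the bar is the mean ± SD of 4 control, 4 siRNA1, and 3 siRNA2 arrays. *Cyp17a1* and *Fdx1* lie below all control arrays with both siRNAs, *Cyb5b* lies above them with siRNA1 only, and *Cyp19a1* lies above them with siRNA2.

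With siRNA1, 4 of the 12 probes were called, against 27.0% of all 24250 tested probes, with 2 higher (background 11.8%) and 2 lower (background 15.2%). With siRNA2, 4 of 12 were called (background 18.4%), with 1 higher (7.70%) and 3 lower (10.7%). Between siRNA1 and siRNA2, 6 of 12 were called (background 23.5%), with 1 higher with siRNA1 (11.7%) and 5 lower (11.8%). The median log2 fold change of the 12 probes was -0.13 with siRNA1 and -0.14 with siRNA2, beside -0.048 and -0.0082 over all tested probes. The siRNA1 and siRNA2 comparisons share their control arrays. With normexp, another background correction, the counts were 1, 0, and 0, while the calls over all probes dropped to 381, 123, and 81. With the slide as a block, the counts of the 12 probes were 7, 4, and 5. The calls over all 24250 tested probes also rose there, to 8671, 6173, and 7783.

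**Figure D2:**
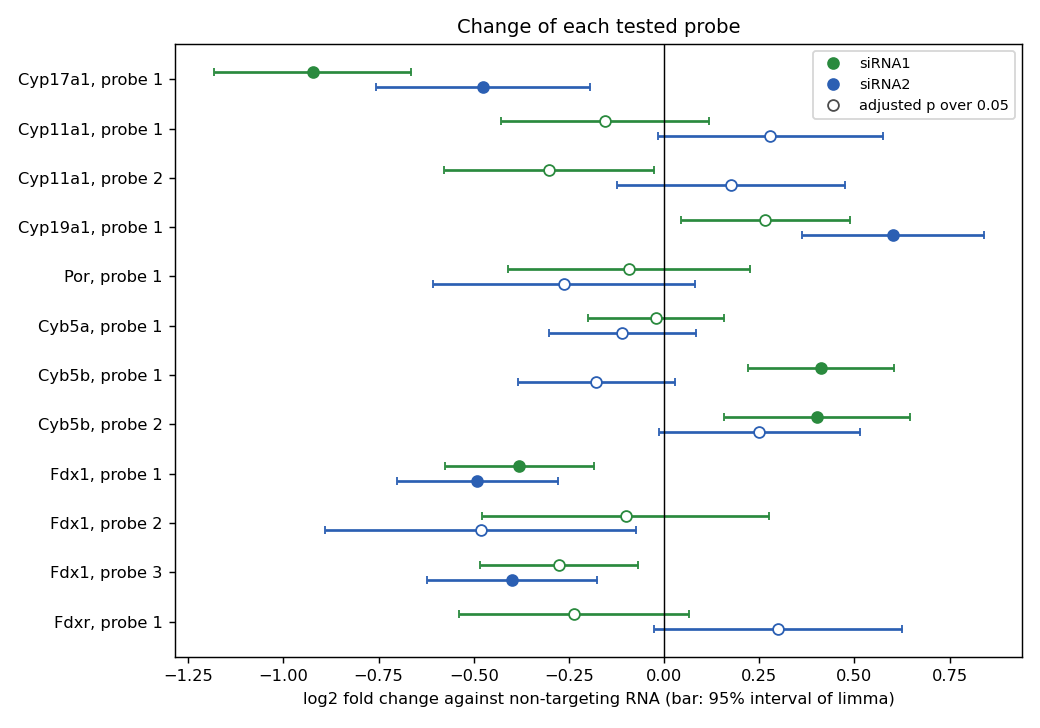
Log2 fold change of each of the 12 tested probes with siRNA1 (green) and siRNA2 (blue) against the 4 control arrays, with the 95% interval of limma, unadjusted. Filled points have an adjusted p of 0.05 or less: with siRNA1 *Cyp17a1*, *Fdx1* probe 1, and both *Cyb5b* probes, and with siRNA2 *Cyp17a1*, *Cyp19a1*, and *Fdx1* probes 1 and 3.

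Among the P450 enzymes, *Cyp17a1*, which encodes the 17α-hydroxylase and 17/20 lyase, stood at 95.2%, 82.2%, 108%, and 118% of control on the 4 control arrays. It stood at 48.9%, 56.4%, 53.3%, and 52.5% with siRNA1 and at 66.6%, 68.9%, and 81.0% with siRNA2. The 3 groups did not overlap, although the highest siRNA2 array came close to the lowest control array. The fitted log2 fold change was -0.92 ± 0.12 (SE) with siRNA1 (adjusted p = 0.000216) and -0.48 ± 0.13 with siRNA2 (adjusted p = 0.0237), and the level was lower with siRNA1 than with siRNA2 by a log2 difference of -0.45 (adjusted p = 0.0255). Within the slides, the siRNA1 difference was -1.17, -0.98, and -0.85, and the siRNA2 difference was -0.54, -0.65, and -0.41. The siRNA2 call was lost when control array 3 or 4 or siRNA2 array 1 or 2 was left out (adjusted p = 0.0575 to 0.0879), with no filter on dim probes (0.0598), with separate fits (0.0617), and with normexp (0.517). The call between the siRNAs was lost on leaving out siRNA1 array 1 or 3, or siRNA2 array 2 or 3 (adjusted p = 0.0539 to 0.109).

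*Cyp11a1*, the gene of the cholesterol side-chain cleavage enzyme, gave close values with its 2 probes. Probe 1 stood at 99.9%, 78.5%, 106%, and 120% on control arrays, at 88.2%, 86.8%, 88.5%, and 96.0% with siRNA1, and at 118%, 111%, and 136% with siRNA2. Every siRNA2 array lay above every siRNA1 array, and both groups overlapped the control arrays, which spread more widely than either. Probe 2 stood at 74.0% to 91.2% with siRNA1 and 101% to 136% with siRNA2, with control arrays at 85.1% to 118%. Against control, no call was made for probe 1 (log2 fold change -0.16 and 0.28, adjusted p = 0.395 and 0.190) or probe 2 (-0.30 and 0.18, adjusted p = 0.0995 and 0.447). The difference between the siRNAs was -0.43 ± 0.13 for probe 1 and -0.48 ± 0.14 for probe 2 (adjusted p = 0.0371 and 0.0252). With the slide as a block, probe 2 was called with siRNA1 as well (-0.30, adjusted p = 0.0188), and its difference had the same sign on all 3 slides (-0.37, -0.32, and -0.25). The call between the siRNAs was lost for probe 1 without siRNA1 array 1, 2, or 3 or any siRNA2 array (adjusted p = 0.0528 to 0.145) and for probe 2 without siRNA1 array 1 or 3 or siRNA2 array 3 (adjusted p = 0.0551 to 0.11).

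*Cyp19a1* encodes aromatase, which converts androgens to estrogens. Its brighter probe gave a mean signal of 28.1 on control arrays, 43.3 with siRNA1, and 45.5 with siRNA2 before scaling, where negative control spots had a median of 1.61 to 2.04. After scaling, it stood at 107%, 108%, 93.6%, and 92.7% on control arrays, at 105%, 112%, 129%, and 138% with siRNA1, and at 155%, 154%, and 147% with siRNA2. The siRNA2 arrays were the highest of the 3 groups without overlap, and the lowest siRNA1 array lay among the control arrays. In log2 terms the change was 0.60 ± 0.11 with siRNA2 (adjusted p = 0.00292) and 0.27 ± 0.10 with siRNA1 (adjusted p = 0.0746), and the siRNA1 arrays were lower than the siRNA2 arrays by -0.34 (adjusted p = 0.0459). That last call ended when any array other than siRNA1 array 4 was left out (adjusted p = 0.0507 to 0.124). With normexp after replacing extreme local backgrounds, the siRNA2 change was 0.16 (adjusted p = 0.301) and the siRNA1 change turned to -0.079, so neither the size nor, for siRNA1, the direction at this low signal was independent of the background correction.

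Among the microsomal partners, *Por*, whose product delivers electrons to CYP17A1 and aromatase, stood at 89.3%, 107%, 100.2%, and 105% on control arrays, at 75.04%, 96.8%, 95.1%, and 112% with siRNA1, and at 67.1%, 86.3%, and 99.9% with siRNA2. All 3 groups overlapped. The log2 fold change was -0.093 with siRNA1 (95% interval -0.41 to 0.23, adjusted p = 0.683) and -0.26 with siRNA2 (-0.61 to 0.081, adjusted p = 0.302). The lowest array of each siRNA group, siRNA1 array 1 and siRNA2 array 1, lay on slide 3, where the difference was -0.38 and -0.54, against 0.097 and -0.067 on slide 1. Without siRNA1 array 1 the siRNA1 change was 0.015. Both intervals are wide, so that *Por* was not shown to be unaltered.

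*Cyb5a*, the cytochrome b5 that aids the 17/20 lyase reaction, had the smallest fitted changes of the 12 probes with both siRNAs. It stood at 106%, 88.3%, 101%, and 106% on control arrays, at 104%, 100.4%, 94.3%, and 95.8% with siRNA1, and at 93.7%, 88.6%, and 95.9% with siRNA2. The siRNA arrays lay within the control range with both siRNAs. The log2 fold change was -0.022 (95% interval -0.20 to 0.16) with siRNA1 and -0.11 (-0.30 to 0.084) with siRNA2, with adjusted p = 0.876 and 0.467.

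*Cyb5b*, the cytochrome b5 of the outer mitochondrial membrane, was the member that rose with siRNA1. Its brighter probe stood at 103%, 112%, 93.5%, and 92.8% on control arrays, at 140%, 135%, 133%, and 125% with siRNA1, and at 94.7%, 89.1%, and 81.9% with siRNA2. All siRNA1 arrays were above all others, whereas the siRNA2 arrays reached into the control range. The fitted log2 fold change was 0.41 ± 0.087 with siRNA1 (adjusted p = 0.00489) and -0.18 ± 0.094 with siRNA2 (adjusted p = 0.236), and the difference between the siRNAs was 0.59 ± 0.094 (adjusted p = 0.000961). On the 3 slides, siRNA1 exceeded siRNA2 by 0.61, 0.59, and 0.56, and this call was kept whichever array was left out.

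The second *Cyb5b* probe stood at 104%, 112%, 88.5%, and 96.6% on control arrays, at 143%, 151%, 124%, and 114% with siRNA1, and at 116%, 129%, and 112% with siRNA2. Both siRNA groups lay above the control arrays, although siRNA2 array 3 was only just higher than control array 2. It was called with siRNA1 (0.40 ± 0.11, adjusted p = 0.0202) and not with siRNA2 (0.25 ± 0.12, adjusted p = 0.187). The probes thus shared the siRNA1 change and had opposite signs with siRNA2, and the second showed no call between the siRNAs (0.15, adjusted p = 0.407). The siRNA1 call of the second probe was lost without control array 3 or 4 or siRNA1 array 1 or 2 (adjusted p = 0.0523 to 0.0605).

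In the mitochondrial chain, *Fdx1*, which encodes the ferredoxin that carries electrons to CYP11A1, was measured with 3 probes. Probe 1 stood at 101%, 99.5%, 101%, and 98.1% on control arrays, at 68.1%, 81.7%, 75.9%, and 82.5% with siRNA1, and at 63.6%, 73.2%, and 77.4% with siRNA2. Control arrays were the most tightly grouped of any member (SD 1.5), and all 7 siRNA arrays were below them. The log2 fold change was -0.38 ± 0.089 with siRNA1 (adjusted p = 0.00878) and -0.49 ± 0.096 with siRNA2 (adjusted p = 0.00465). Both calls held when any single array was left out, and the difference between the siRNAs was 0.11 (95% interval -0.10 to 0.32, adjusted p = 0.456).

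Probe 3 of *Fdx1* stood at 89.0%, 109%, 105%, and 97.8% on control arrays, at 78.2%, 76.3%, 83.2%, and 94.0% with siRNA1, and at 72.3%, 75.8%, and 79.5% with siRNA2. The siRNA2 arrays were all below control, and siRNA1 array 4 lay among the control arrays. It was called with siRNA2 (-0.40 ± 0.10, adjusted p = 0.0189) and not with siRNA1 (-0.28 ± 0.094, adjusted p = 0.0512), where the slide block gave an adjusted p of 0.0377. Probe 2 had the widest control spread, with arrays at 78.0%, 127%, 110%, and 91.6%, and stood at 70.5%, 89.5%, 106%, and 113% with siRNA1 and at 68.9%, 74.8%, and 71.2% with siRNA2. All its siRNA2 arrays were below control, the siRNA1 arrays were spread over the control range, and it was called with neither (-0.10 and -0.48, adjusted p = 0.707 and 0.10). With siRNA2, all 3 probes were lower on each of the 3 slides, by 0.30 to 0.66 on the log2 scale. With siRNA1, probe 2 was higher on slide 1 (0.30) and lower on slides 2 and 3 (-0.18 and -0.50). The mean over the 3 probes was not called with siRNA1 (-0.25, adjusted p = 0.0987). The siRNA2 call of probe 3 was lost without control array 3 or siRNA2 array 1 or 2 (adjusted p = 0.0515 to 0.065).

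*Fdxr*, the gene of the ferredoxin reductase that takes electrons from NADPH, stood at 98.0%, 93.2%, 104%, and 106% on control arrays, at 65.8%, 92.3%, 83.6%, and 102% with siRNA1, and at 107%, 121%, and 144% with siRNA2. The siRNA2 arrays lay above all others, and the siRNA1 arrays ran from well below the control arrays into their range. Against control, the log2 fold change was -0.24 ± 0.14 with siRNA1 (adjusted p = 0.232) and 0.30 ± 0.15 with siRNA2 (adjusted p = 0.204), neither called. The difference between the siRNAs was -0.54 ± 0.15 (adjusted p = 0.0222), with -0.50, -0.46, and -0.71 on the 3 slides. With the slide as a block, the siRNA1 change was called (-0.29, adjusted p = 0.0366), and without siRNA1 array 3 or siRNA2 array 2 or 3 the call between the siRNAs was lost (adjusted p = 0.0524 to 0.0984). *Fdxr* and *Cyp11a1* had the same signs against control with each siRNA, though neither was called there in the main fit. Their shared sign between the siRNAs follows from these. *Fdx1*, which stands between them in the chain, was lower than control with both siRNAs. With siRNA1, however, the mean over the 3 *Fdx1* probes was not called (-0.25, adjusted p = 0.0987).

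**Figure D3:**
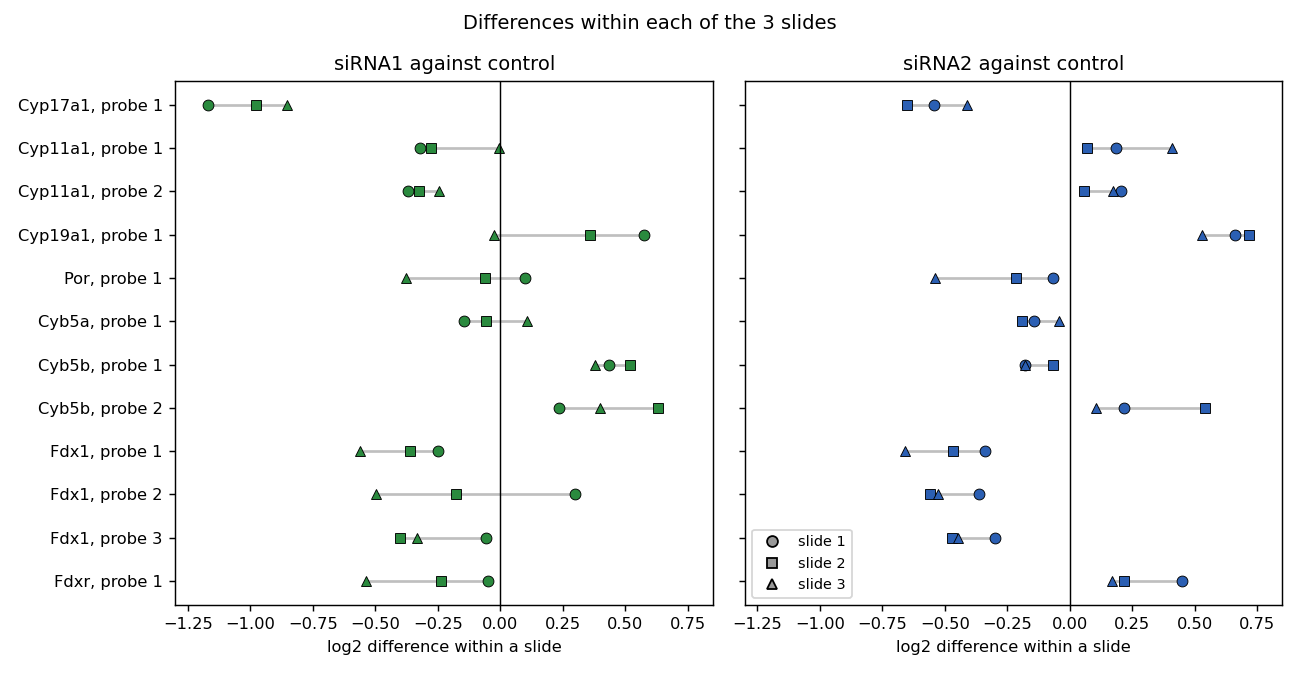
Log2 difference between siRNA and control arrays within each of the 3 slides, for the 12 tested probes, with siRNA1 on the left and siRNA2 on the right. With siRNA2 all 12 probes kept 1 sign on the 3 slides, and with siRNA1 8 of 12 did. No share over all tested probes is given, so these counts have no background to compare with.

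Reference sequence before the start of transcription was available for 6 of the 8 genes (9 windows of 250 bases, RefSeq, GRCm38.p6). It was not available for *Cyp17a1* or *Cyb5a*, which were therefore not searched. The windows of the 3 mitochondrial chain genes are shown because these genes form 1 electron chain. Each runs 5′ to 3′ on the gene's strand and ends at the base before the transcript start. Capitals mark AGGTCA or its reverse complement, the core of sites bound by nuclear receptors such as NR5A1 (SF1), and GGGCGG or its reverse complement, the core bound by Sp1.
Fdx1, chr9:51963603-51963852, strand -: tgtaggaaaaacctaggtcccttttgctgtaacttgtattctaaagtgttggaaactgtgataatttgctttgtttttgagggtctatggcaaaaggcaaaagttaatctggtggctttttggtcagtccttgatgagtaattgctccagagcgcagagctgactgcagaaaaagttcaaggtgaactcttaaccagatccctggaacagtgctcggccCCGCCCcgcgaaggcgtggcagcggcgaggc
Fdxr, chr11:115276970-115277219, strand -: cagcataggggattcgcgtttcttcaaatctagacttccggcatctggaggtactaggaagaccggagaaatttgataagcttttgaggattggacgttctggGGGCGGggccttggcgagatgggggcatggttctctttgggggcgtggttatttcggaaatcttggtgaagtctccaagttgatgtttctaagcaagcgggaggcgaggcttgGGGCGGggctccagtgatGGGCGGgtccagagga
Cyp11a1, chr9:57997774-57998023, strand +: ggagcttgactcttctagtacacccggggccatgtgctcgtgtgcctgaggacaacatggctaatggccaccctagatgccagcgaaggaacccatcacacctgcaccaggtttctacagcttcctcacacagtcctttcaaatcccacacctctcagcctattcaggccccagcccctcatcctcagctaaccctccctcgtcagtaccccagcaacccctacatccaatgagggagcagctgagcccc
Cyp11a1, chr9:58014702-58014951, strand +: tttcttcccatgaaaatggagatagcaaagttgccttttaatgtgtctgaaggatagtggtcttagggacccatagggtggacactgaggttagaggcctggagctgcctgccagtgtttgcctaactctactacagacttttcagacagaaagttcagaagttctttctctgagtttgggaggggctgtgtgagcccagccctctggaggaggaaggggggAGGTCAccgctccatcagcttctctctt
AGGTCA stood in 1 of the 2 *Cyp11a1* windows, 28 bases before the transcript start, and in 1 *Cyp19a1* window, and 14.0% of all 32851 windows held it on either strand. GGGCGG stood once in the *Fdx1* window on the other strand, 31 bases before the start, 3 times in the *Fdxr* window, and in the *Por* window, beside 32.7% of all windows. The longer NR5A1 site CAAGGTCA, which contains AGGTCA, stood in none of the 9 windows (1.33% of all), nor did the cAMP response element TGACGTCA (1.55%). These counts describe letters in the windows and say nothing of binding.

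Ratios within an array do not depend on the scaling between arrays. The ratio of *Cyp17a1* to *Cyp11a1*, brightest probe of each, stood at 95.3%, 105%, 102%, and 98.5% of its control mean on control arrays, at 55.5%, 65.0%, 60.3%, and 54.7% with siRNA1, and at 56.6%, 61.9%, and 59.4% with siRNA2. The control arrays were within 5% of their mean, and both siRNA groups lay far below them and overlapped each other, and the mean ratio was 58.7% with siRNA1 and 59.3% with siRNA2. In the exact two-sided permutation test both ratios gave p = 0.0286 (adjusted p = 0.0364 over 14 ratios), the smallest that these numbers of arrays allow. Of the 14 ratios of *Cyp17a1* to the other 7 genes, 11 passed at this value, all 7 with siRNA1 and 4 of 7 with siRNA2. The 3 that did not pass were to *Por* (86.3%, permutation adjusted p = 0.267), *Cyb5b* (81.3%, permutation adjusted p = 0.308), and *Fdx1* (101%, permutation adjusted p = 0.971) with siRNA2. For *Fdx1*, the ratio stood at 94.0%, 82.6%, 107%, and 120% on control arrays, at 105%, 94.1%, and 105% with siRNA2, and at 71.9%, 69.1%, 70.3%, and 63.7% with siRNA1. The siRNA2 arrays lay within the control range and the siRNA1 arrays below it. A ratio shows unequal change and not which gene changed. All 14 ratios share *Cyp17a1*, whose own siRNA arrays all lay below the control arrays, so they are not separate results. No share over all genes is given beside these counts.

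**Figure D4:**
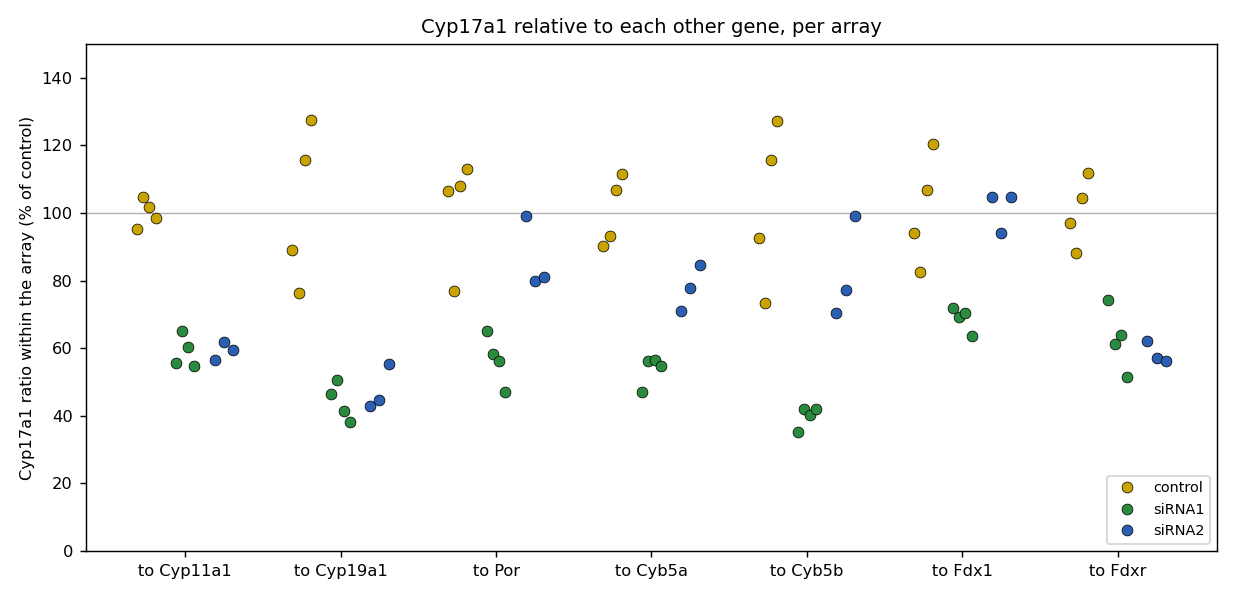
Ratio of *Cyp17a1* to each other gene within each array, brightest probe of each, as a percentage of the control level of that ratio. With siRNA1 (green) all ratios lie below the control arrays (yellow), and with siRNA2 (blue) the ratios to *Por*, *Cyb5b*, and *Fdx1* overlap them.

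Over the 11 arrays, the log2 level of *Cyp17a1* correlated with that of *Fdx1* (r = 0.73), *Fdxr* (0.47), *Cyp11a1* (0.46), *Por* (0.30), and *Cyb5a* (0.28), and inversely with *Cyp19a1* (-0.48) and *Cyb5b* (-0.73). Among 16947 probes with a gene symbol, the *Fdx1* probe ranked 2091 in likeness to *Cyp17a1*. The 5 genes most alike were *Morn1* (r = 0.98), *Rtn2* (0.98), *Lyrm9* (0.98), *Emp3* (0.98), and *Babam1* (0.98), and the 5 most opposite were *Btbd3* (-0.99), *Slc35g1* (-0.98), *Slc35f5* (-0.98), *Gadd45a* (-0.98), and *Elmod2* (-0.97). These values are a description over 11 arrays that share the group means, and of these genes *Babam1* with siRNA2 (-0.24, adjusted p = 0.102), *Slc35f5* (0.28, 0.109), *Gadd45a* (0.30, 0.077), and *Elmod2* (0.33, 0.0663) were not called.

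Other genes of the electron supply were counted by the brightest tested probe of each gene, for which 10.6% of 11818 genes were called higher and 18.7% lower with siRNA1, and 8.02% higher and 12.2% lower with siRNA2. Of the 8 members themselves, 1 was higher and 2 were lower with each siRNA. A list of 12 further genes held redox partners and also enzymes that draw on POR, such as *Hmox1*. Of these 12, 2 were higher and 3 lower with siRNA1 (median log2 fold change -0.099). With siRNA2, 1 was higher and 2 were lower (-0.087). The median over all genes was -0.082 and -0.021. *Cyb5r3*, whose product reduces cytochrome b5 with NADH, stood at 93.1% to 104% on control arrays, at 56.4% to 67.3% with siRNA1, and at 31.6% to 34.5% with siRNA2. The 3 groups were far apart, with log2 fold changes of -0.69 and -1.6 (adjusted p = 0.000142 and 1.7e-06) and a difference between the siRNAs of 0.90 (adjusted p = 5e-05), and a second probe gave -0.39 and -1.4. *Cyb5r1* and *Cyb5rl*, of the same reductase family, fell with siRNA1 (-0.79 and -0.66, adjusted p = 0.00016 and 0.00065) and were not called with siRNA2 (-0.23 and -0.16). *Hmox1*, which encodes the heme-degrading heme oxygenase that draws on POR, rose with siRNA1 (0.57, adjusted p = 0.00202) and not with siRNA2 (-0.28, adjusted p = 0.113), and *Nenf*, a small protein with a cytochrome b5-like domain, rose with siRNA2 (0.66, adjusted p = 0.00516). *Mtrr*, a flavoprotein related to POR, rose with siRNA1 by its brightest probe (1.1, adjusted p = 3.5e-05) while its other 2 probes were not called (-0.25 and -0.20).

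Of 9 genes for the assembly of iron-sulfur clusters, which ferredoxin carries, 1 was higher and 4 were lower with siRNA1 (median -0.16), and 0 were higher and 5 were lower with siRNA2 (-0.27). *Hscb*, a co-chaperone of cluster transfer, stood at 45.3% to 56.7% with siRNA1 and 64.8% to 74.4% with siRNA2, beside 89.8% to 106% on control arrays. It changed by -0.99 with siRNA1 and -0.51 with siRNA2 in log2 terms (adjusted p = 4.1e-05 and 0.00696). *Lyrm4*, a subunit of the cysteine desulfurase complex, fell with both (-0.58 and -0.45, adjusted p = 0.00411 and 0.0308), as did the glutaredoxin gene *Glrx5* (-0.34 and -0.29, adjusted p = 0.00999 and 0.0428). The scaffold gene *Iscu* fell with siRNA1 (-0.39, adjusted p = 0.022), and the chaperone gene *Hspa9* fell with siRNA2 (-0.24, adjusted p = 0.0421). *Iba57* was higher with siRNA1 (0.69, adjusted p = 0.000453) and lower with siRNA2 (-0.46, adjusted p = 0.0121), while its dimmer probe was called with neither (0.096 and -0.074).

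Of 8 genes of heme synthesis, 0 were higher and 2 lower with siRNA1 (median -0.17), namely *Urod* (-0.47, adjusted p = 0.00302) and *Alad* (-0.39, adjusted p = 0.0143), and 0 were higher and 1 lower with siRNA2 (-0.21), namely *Uros* (-0.36, adjusted p = 0.0167). With siRNA1, the dimmer probes of *Alas1* (-0.40, adjusted p = 0.0149) and *Fech* (0.28, adjusted p = 0.0111) were called, and their brightest probes were not (-0.29 and 0.18). Of 11 genes of NADPH supply, 2 were higher and 2 lower with siRNA1 (median -0.0055), and 0 were higher and 3 lower with siRNA2 (-0.23). *Pgd*, the phosphogluconate dehydrogenase of the pentose phosphate pathway, stood at 96.8% to 103% on control arrays, 111% to 119% with siRNA1, and 46.4% to 49.97% with siRNA2. The groups were apart in opposite directions (0.20 and -1.1, adjusted p = 0.0494 and 4.8e-06), and the difference between the siRNAs was 1.3 (adjusted p = 1.4e-06). The dimmer *Pgd* probe had the same signs but was not called with siRNA1 (0.20, adjusted p = 0.0587), and it was called with siRNA2 (-1.1, adjusted p = 5.7e-06). *H6pd* (-0.42) and *Me3* (-0.46) fell and *Mthfd1* (0.20) rose with siRNA1, and *Me1* (-0.40) and *Me2* (-0.32) fell with siRNA2. The dimmer *H6pd* probe was not called with siRNA1 (-0.15, adjusted p = 0.452).

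Of 13 other P450 genes served by the same partners, 0 were higher and 4 lower with siRNA1 (median -0.24), and 0 were higher and 5 lower with siRNA2 (-0.24). *Cyp51*, the lanosterol demethylase of cholesterol synthesis, was lower with both (-0.40 and -0.63, adjusted p = 0.0176 and 0.00326), with all 3 of its probes called. *Cyp4f13* fell with siRNA1 (-1.2, adjusted p = 3.2e-05) and not with siRNA2 (-0.24, adjusted p = 0.215). *Cyp27a1*, a mitochondrial enzyme that uses ferredoxin, fell with siRNA2 (-0.73, adjusted p = 0.000732) and not with siRNA1 (0.012, adjusted p = 0.941), as did *Cyp1b1* (-0.79 and 0.018) and the retinoic acid hydroxylase gene *Cyp26b1* (-0.65 and -0.27). *Cyp1a1* passed the background test on 3 of 4 control arrays and on no siRNA2 array. It counts among the 5 lower, but its fitted change rests on signals below background, and only a reduction of at least 1.27-fold is given, where the bound takes, for each siRNA2 array, its lowest signal well above background.

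Of 17 other genes of steroid synthesis and its control, 0 were higher and 3 lower with siRNA1 (median -0.066), and 1 was higher and 4 were lower with siRNA2 (0.097). *Hsd17b7* was lower with both siRNAs (-0.91 and -0.57, adjusted p = 0.00164 and 0.0395). The LH receptor gene *Lhcgr*, through which hCG acts, stood at 53.2% to 76.7% with siRNA1 and 98.5% to 126% with siRNA2 beside 97.5% to 103% on control arrays, a fall with siRNA1 (-0.63, adjusted p = 0.00285). *Srd5a3* fell with siRNA1 by its brightest probe (-0.48, adjusted p = 0.00251), and its other probe was not called (-0.46, adjusted p = 0.0994). With siRNA2, *Akr1c18*, the progesterone-reducing 20α-hydroxysteroid dehydrogenase, fell (-1.1, adjusted p = 7e-05), *Hsd17b12* fell (-1.1, adjusted p = 0.0122), and the 5α-reductase gene *Srd5a1* rose (0.27, adjusted p = 0.0357).

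**Figure D5:**
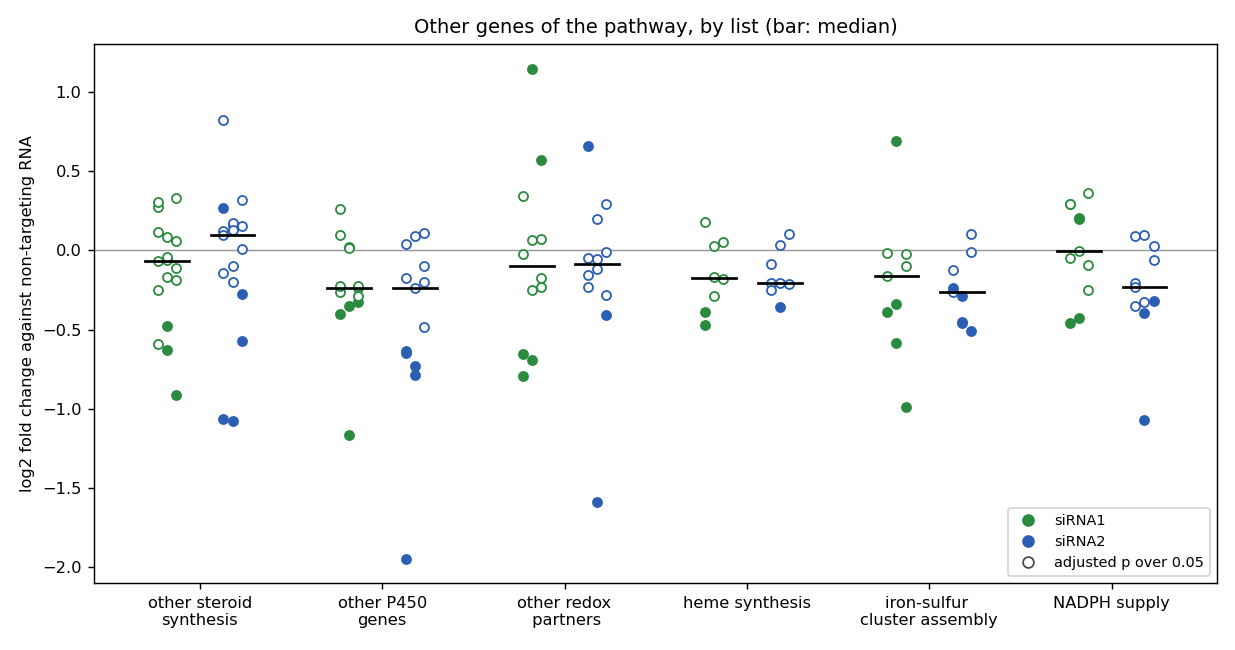
Log2 fold change against control of the brightest tested probe of each gene in 6 lists, with siRNA1 (green) and siRNA2 (blue). Filled points have an adjusted p of 0.05 or less, and bars are the medians. *Cyb5r3*, at -1.6 with siRNA2, and *Hscb*, at -0.99 with siRNA1, are the lowest points of the redox and iron-sulfur lists, and the lowest P450 point, *Cyp1a1* with siRNA2 (-1.9), rests on signals below background.

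Among the cell markers, the 8 Leydig cell genes summed to 86.6% to 111% of control on control arrays, 84.0% to 97.4% with siRNA1, and 98.2% to 118% with siRNA2. The sum adds linear levels, so bright genes weigh most, here *Hsd3b1* and *Cyp11a1*, itself a member. It does not show that each marker was unaltered. Of the 8, 1 was called, *Lhcgr* with siRNA1. *Insl3*, not called, stood at 150% to 231% with siRNA2, beside 74.0% to 120% on control arrays. With the slide as a block, *Insl3* was called higher with siRNA2 (0.72, adjusted p = 0.00865) and *Hsd3b1* lower with siRNA1 (-0.27, adjusted p = 0.0203) as well. The 3 tested Sertoli cell genes held 1 call, *Rhox5* lower with siRNA1 (-0.58, adjusted p = 0.00767), with the sum of the 7 genes at 95.1% to 112% there. *Gata1* was the brightest of the 3 and weighs most of them in that sum. With siRNA1, *Gata1* stood at 109% to 126% and *Amh* at 63.4% to 106%, neither called. The endothelial marker *Cdh5* was higher with both (1.2 and 0.84, adjusted p = 2.1e-05 and 0.000652), with the sum of its 3-gene list at 189% to 262% with siRNA1 and 165% to 201% with siRNA2, while *Kdr* was well above background on no array and *Pecam1* on 3. The germ cell marker *Ddx4* was well above background on all control and siRNA2 arrays and on 1 of 4 siRNA1 arrays. It stood at 21.6% to 43.5% of control with siRNA1, against 81.1% to 121% on control arrays. The siRNA1 range rests mostly on signals not well above background, so the size of this fall is uncertain. No macrophage marker was tested, and the 1 adrenal cortex gene tested was not called. The part of these genes in the changes of the P450 enzymes and their partners was not tested.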

How the data were processed

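The signal intensity of each spot was deposited as made by Agilent Feature Extraction (version 9.5.1.1 per the file headers, 9.5 in the submitters' processing notes), which subtracts background without normalization between arrays. The deposited median intensities of spot and local background served normexp alone. For each array, the log2 signal at the 75th percentile of non-control spots was subtracted, outlier-marked spots (45 to 96 per array) were left out, and spots of a probe were averaged. Probes were named by RefSeq accession (24375 of 41174). The 3 groups of 11 arrays were fitted together in limma 3.58.1 under R 4.3.3, with Benjamini-Hochberg adjustment over 24250 probes. Permutation tests were exact and two-sided. In simulated data of 24170 probes, only 100 had a log2 change of 0.5 and 100 a change of 1. The change of 0.5 was called in 28% of its probes with siRNA1 and 23% with siRNA2, and the change of 1 in 80% and 73%. In the data, 27.0% and 18.4% of probes were called, which makes the adjusted threshold less strict. These shares therefore do not give the sensitivity of the tests above.

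The members, lists, and tests were chosen with earlier results of these data known. Named were all members, *Mamld1*, at most 6 called genes per list by adjusted p, and the 5 genes most like and most unlike *Cyp17a1*. Alternatives changed background correction, scaling, filter, block, test, probe choice, and arrays. The authors' deposited table of group averages was not used. The labels do not say that replicate numbers pair the arrays, and the main fit used no pairing or block. In their deviations from the group means, 7 of 10 same-numbered pairs correlated above 0.1 (r = -0.18 to 0.53, median 0.30). Of other pairs, 8 of 30 did (median -0.10). On the same slide, 10 of 13 pairs did (median 0.30), beside 5 of 27 on different slides (median -0.12). Arrays that share a number or a slide were thus more alike by the median, and number and slide partly coincide.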

Additional observations from a re-analysis of the deposited data

Results flagged for a closer look

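The change against control differed between siRNA1 and siRNA2 for 6 of the 12 probes in the limma fit. The siRNA1 change minus the siRNA2 change was 0.59 on the log2 scale for *Cyb5b* probe 1, -0.43 and -0.48 for *Cyp11a1* probes 1 and 2, -0.45 for *Cyp17a1*, -0.34 for *Cyp19a1* probe 1, and -0.54 for *Fdxr*. Of these, *Cyp17a1* fell with both siRNAs, *Cyb5b* probe 1, *Cyp11a1*, and *Fdxr* had opposite signs against control, and *Cyp19a1* was higher with both. Of 24 sets of 4 control or siRNA1 arrays, 0 held an array that stood apart by Dixon's test.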

How the results depend on the processing

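The main counts of called probes were 4 with siRNA1, 4 with siRNA2, and 6 between the siRNAs, and 11 of the *Cyp17a1* ratios passed. Normexp gave 1, 0, and 0. After extreme local backgrounds, found on 5 arrays, were replaced, a choice made after seeing the data, it gave 5, 3, and 5. Over all probes, the calls were 381, 123, and 81 with normexp and 7453, 3710, and 5335 after that replacement. The main fit gave 6553, 4472, and 5709. A fold minimum of 2 gave 0, 0, and 0. Between the siRNAs, the count was 1 with median scaling, 1 with no filter on dim probes, and 3 with the adjusted t-test of the methods. Under that t-test *Cyp17a1* also lost its siRNA2 call (0.123). The calls over all probes between the siRNAs fell as well, to 4490 with median scaling and 4039 with the adjusted t-test. They were 4334 with no filter, where all 41174 probes were tested. With siRNA1, the member count was 7 with the slide as a block and 7 with the unadjusted t-test of the methods. The calls over all probes rose there too, to 8671 and 8742. With the probes of a gene averaged, 2 of 8 genes were called with siRNA1, beside 3 by the brightest probe. No share over all genes is given for the averages. The replicate block gave 5, 5, and 5, beside 8397, 5847, and 7493 over all probes, though the labels do not say that the numbers pair the arrays. Over all probes, calls fell from 4472 to 2850 with siRNA2 under the adjusted t-test and to 2976 without siRNA2 array 2, and to 726, 545, and 814 with the fold minimum. Leaving out each array in turn gave 3 to 5, 2 to 5, and 1 to 6 calls and 0 to 10 ratios. The 0 arose because the permutation test could not pass with fewer control or siRNA2 arrays. Over all probes, the calls then ran from 4974 to 6671, 2976 to 4412, and 4235 to 5647.

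Signs turned for some values. Of these, only *Cyp19a1* between the siRNAs was called in the main fit (-0.34, adjusted p = 0.0459 in limma). Normexp gave -0.054 for *Cyp11a1* probe 2 with siRNA2, and between the siRNAs 0.16 for *Cyp19a1*, -0.0092 for *Fdx1* probe 1, and -0.028 for *Cyb5a*. The replaced backgrounds gave -0.079 for *Cyp19a1* and 0.062 for *Cyb5a* with siRNA1, and *Cyb5a* was 0.079 with quantile normalization and 0.021 with median scaling. The mean over all probes gave 0.036 for *Cyb5b* and -0.019 for the *Cyp17a1* to *Fdx1* ratio, both with siRNA2. Over the fits that left out each array in turn, the siRNA1 change ran from -0.082 to 0.0059 for *Cyb5a* (above 0 without control array 1 or 4), from -0.22 to 0.033 for *Fdx1* probe 2 (without control array 2 or siRNA1 array 1), and from -0.18 to 0.015 for *Por* (without siRNA1 array 1), and the *Cyp17a1* to *Fdx1* ratio with siRNA2 ran from -0.077 to 0.10 (below 0 without control array 1 or 2 or siRNA2 array 1 or 3). In all, 523 of 585 member changes kept their sign and their side of the threshold when a setting was changed, with 40 losing a call, 13 gaining one, and 9 changing sign, and 350 of 396 did so when an array was left out, with 37, 4, and 5. Many of the changes that stayed the same were not called in the main fit, which called 4, 4, and 6 of the 12 probes. The causes were not tested. The low signal of *Cyp19a1* and the number of arrays limit these results.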
